A study of Mus musculus with 6 samples.

Results

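Genes for lysosomal hydrolases and lysosomal membrane proteins were examined in sorted upper-layer neurons of the mouse cerebral cortex at postnatal day 5 (P5) and postnatal day 3 (P3). The members were 43 gene symbols chosen by name, and 42 of them match a row of the 22544-row expression table. The remaining one, Tfeb, is listed under its older symbol Tcfeb and is described separately. The members comprise 10 cathepsins and other peptidases, 11 glycosidases, 5 sulfatases and related enzymes, 5 lipid enzymes, 3 soluble cofactors and 8 membrane proteins. The series is about how neurons become post-mitotic. RNA sequencing was done on neurons labelled with green fluorescent protein (GFP) and isolated by fluorescence-activated cell sorting from Swiss Webster mice, with 3 biological replicates at P5 and 3 at P3. Both groups are untreated animals of the same strain, and the method of GFP labelling is not given in the sources used here. Expression is given as FPKM (fragments scaled to the length of the transcript and to the size of the library), for which the authors' deposited table holds 1 pooled value per age, so no value per replicate can be shown and the spread between replicates enters only through the authors' own Cuffdiff test.

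Lysosomes are acidic organelles in which proteins, glycans and lipids delivered by endocytosis and autophagy are broken down. Soluble hydrolases reach them mostly with a mannose 6-phosphate tag, while glycosylated membrane proteins line the limiting membrane and carry products out. The transcription factor TFEB binds a palindromic promoter element, the CLEAR element, at many of these genes. In the brain, inherited loss of a single hydrolase causes a storage disorder that often affects neurons, and microglia are known for a high content of lysosomal enzymes.

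Lysosomal genes tended to have higher FPKM in the cells sorted at P5 than in those sorted at P3, but no single difference passed the test. Markers of other cell types were also found in these sorts, as given below. Of the 41 members with FPKM above 0 at both ages, 35 were higher and 6 were lower at P5 (85.4% higher), whereas 55.6% of the 12313 tested rows measured at both ages were higher and 44.4% lower. Their median log2 ratio of P5 over P3 was 0.84, against 0.13 over all tested rows. A log2 ratio of at least 1 was found in 17 members with higher FPKM at P5, where the share over all tested rows was 23.9%, and in 2 members with lower FPKM, where it was 10.0%. Summed over the 42 members, FPKM came to 1037 at P5 and 637 at P3, which was 0.352% of the FPKM of all rows at P5 and 0.202% at P3.

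None of these differences passed the test of the authors. Cuffdiff called 0 of the 42 tested members at a q-value (adjusted p) of 0.05 in the authors' deposited table, as it called 0.0% of all 12865 tested rows. At an unadjusted p under 0.05 there was 1 member, the aspartic protease gene Ctsd, with higher FPKM at P5, against 0.77% of all tested rows in either direction, 0.585% of those measured at both ages with higher and 0.187% with lower FPKM. The standard error (SE) of the log2 ratio implied by the test statistic had a median of 1.19 over the members, so differences of the size seen here were mostly not detectable by this test. In pools of sorted cells such as these, more cells of a type and more RNA per cell cannot be told apart.

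**Figure D1:**
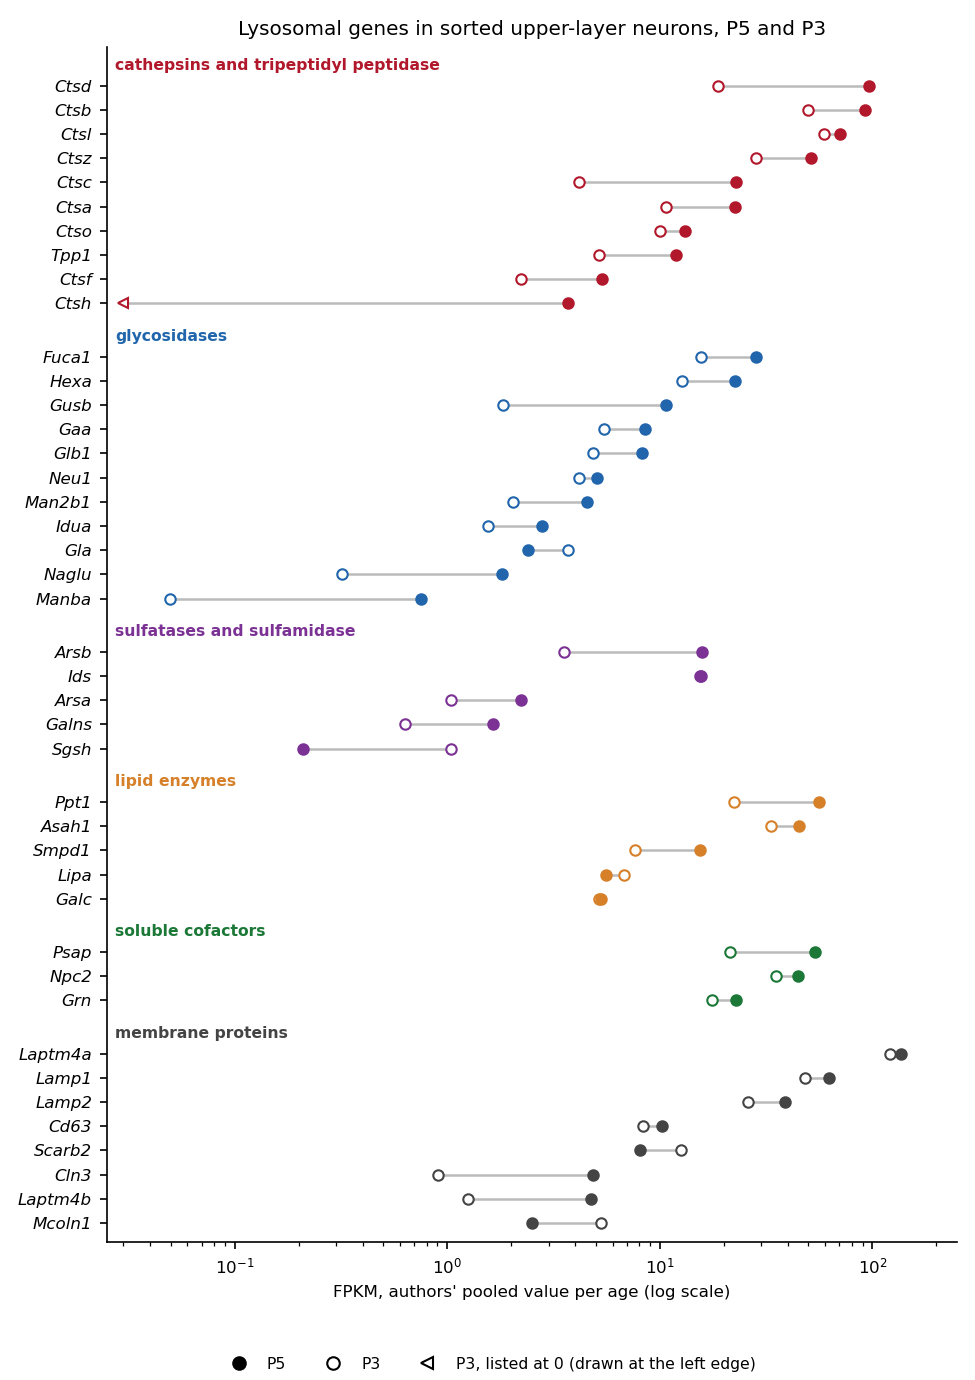
FPKM of the 42 lysosomal genes at P5 (filled) and P3 (open) on a log scale, 1 pooled value per age, grouped by class and ordered by P5 level. Most filled points lie to the right of their open partners, with Gla, Ids, Sgsh, Lipa, Scarb2 and Mcoln1 the other way, and Ctsh is listed at 0 at P3.

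Low values lean to higher P5 levels throughout this table, so the members were also read within bands of mean FPKM. Of 13 members with a mean FPKM of at least 20, all 13 were higher at P5, with a median log2 ratio of 0.58, whereas 46.6% of all tested rows in that band were higher and their median was -0.05. Between 5 and 20 FPKM the median was 0.75 over 15 members, 12 of them higher, and 0.04 over all rows. Under 5 FPKM it was 1.16 over 13 members, 10 of them higher, and 0.46 over all rows. The distance between members and all rows was thus present at each level, while the ratios themselves were largest among genes of low level.

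**Figure D2:**
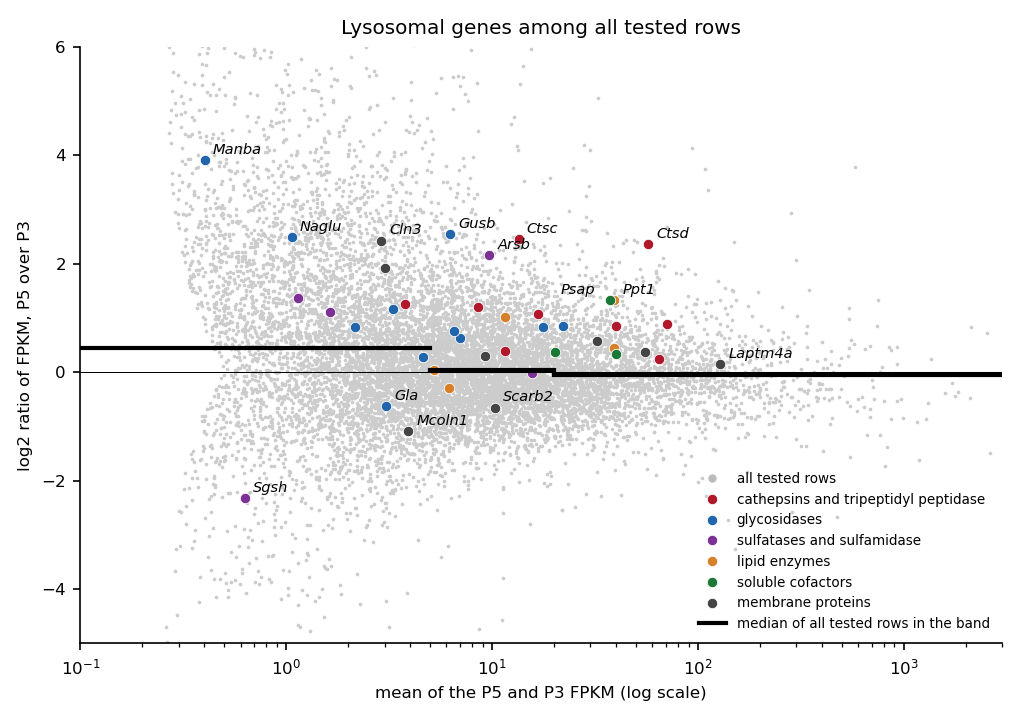
Log2 ratio of FPKM (P5 over P3) against the mean of both ages (log scale) for all tested rows (grey, those outside the axes not drawn) and 41 lysosomal genes by class, with black bars for the median of all rows in each band of mean FPKM. Members with a mean of at least 20 FPKM have a median of 0.58, against -0.05 for all rows of that level.

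Markers of other cell types differed in the same direction in these sorts. All 14 microglia and macrophage markers measured at both ages were higher at P5, with a median log2 ratio of 4.46, and the 17 markers found summed to 229 FPKM at P5 and 51.7 FPKM at P3. The defining microglial genes Cx3cr1, Csf1r and P2ry12 had 5.36, 8.25 and 16.3 FPKM at P5, against 0.18, 0.37 and 0.74 FPKM at P3. Tmem119 (1.96 FPKM at P5) and Itgam (0.37 FPKM at P5, not tested by the authors) were listed at 0 at P3. In that list Ctss, Cd68 and Laptm5, among others, encode lysosomal proteins themselves and also stand in the lists of other lysosomal genes. The median was 0.98 for astrocyte markers (11 of 13 higher, sums of 3342 FPKM at P5 and 2717 FPKM at P3), 1.96 for oligodendrocyte lineage markers (10 of 10, 329 and 152 FPKM), 3.27 for endothelial and mural markers (8 of 10, 951 and 916 FPKM) and 4.37 for erythroid markers (2 of 2, 71.1 and 2.51 FPKM). The mural gene Rgs5, with 905 FPKM at P5 and 911 FPKM at P3, made up nearly all of the endothelial and mural sums, which without it were 45.8 FPKM at P5 and 5.13 FPKM at P3. In that list 3 of 13 genes reached 1 FPKM at P3. The largest medians carried wide errors. The median SE was 2.64 for microglia and macrophage markers, 2.68 for endothelial and mural markers and 2.49 for erythroid markers. Without Ctsc, Ctsh, Ctsz and Grn, members known for strong expression in microglia, 32 of 38 members were higher at P5 and the median log2 ratio was 0.84. Microglia can express the members kept as well, so this count does not measure the part of microglia. The part of any of these cell types in the values of the lysosomal genes was not tested.

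Pan-neuronal markers were mostly higher at P5, while upper-layer identity genes were divided. Of 14 pan-neuronal and excitatory markers 11 were higher at P5, the median log2 ratio being 1.12 and the sums 1360.4 FPKM at P5 and 850.5 FPKM at P3. Among upper-layer identity genes 6 of 13 were higher (median -0.37), and they summed to 590.4 FPKM at P5 and 606 FPKM at P3. All 13 upper-layer genes reached 1 FPKM at both ages, although the defining factor Cux2 had only 1.99 FPKM at P5 and 1.87 FPKM at P3, while the glial transporter Slc1a3 had 758 FPKM at P5 and 1088 FPKM at P3.

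Promoters of the members were searched for the CLEAR palindrome because it is the known element shared by this gene class. Windows of 300 bases (250 before to 50 after the gene start, RefSeq, build GRCm38.p6) were matched by symbol for 38 of the 43 members. The core CACGTG occurred in 13 of the 38 members (34.2%) and in 8.09% of 27025 genes with a window. The longer TCACGTGA, which contains that core, occurred in 5 members (13.2%) and in 1.12% of genes. Both motifs read the same on both strands. Lamp1 had 4 copies of the core within its window, the most of any member. The 5 windows with TCACGTGA are shown because they include members on both sides of the comparison, with Ctsd, Ctsa and Cln3 higher and Mcoln1 and Gla lower at P5. They lie at chr7:142387778-142388077 on the minus strand (Ctsd), chr2:164833523-164833822 on the plus strand (Ctsa), chr7:126583187-126583486 on the minus strand (Cln3), chr8:3500269-3500568 on the plus strand (Mcoln1) and chrX:134600956-134601255 on the minus strand (Gla). Each is written 5′ to 3′ along the gene, with TCACGTGA in capitals.
Ctsd: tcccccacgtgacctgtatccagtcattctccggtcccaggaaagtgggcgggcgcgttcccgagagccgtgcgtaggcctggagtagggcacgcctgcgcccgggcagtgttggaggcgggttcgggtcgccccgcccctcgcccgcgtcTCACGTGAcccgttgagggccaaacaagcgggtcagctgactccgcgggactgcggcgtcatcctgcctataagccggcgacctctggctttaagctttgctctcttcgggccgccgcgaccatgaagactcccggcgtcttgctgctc
Ctsa: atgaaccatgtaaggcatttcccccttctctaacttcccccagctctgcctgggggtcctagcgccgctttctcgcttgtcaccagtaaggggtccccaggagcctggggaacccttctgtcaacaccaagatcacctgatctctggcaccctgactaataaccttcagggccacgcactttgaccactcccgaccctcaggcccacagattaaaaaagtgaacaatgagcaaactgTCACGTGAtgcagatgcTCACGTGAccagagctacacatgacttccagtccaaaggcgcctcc
Cln3: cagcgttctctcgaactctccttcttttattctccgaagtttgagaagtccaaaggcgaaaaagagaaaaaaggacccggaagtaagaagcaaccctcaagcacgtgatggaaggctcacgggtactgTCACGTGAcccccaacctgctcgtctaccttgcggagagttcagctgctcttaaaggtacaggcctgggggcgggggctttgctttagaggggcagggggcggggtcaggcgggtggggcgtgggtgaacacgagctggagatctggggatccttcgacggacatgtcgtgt
Mcoln1: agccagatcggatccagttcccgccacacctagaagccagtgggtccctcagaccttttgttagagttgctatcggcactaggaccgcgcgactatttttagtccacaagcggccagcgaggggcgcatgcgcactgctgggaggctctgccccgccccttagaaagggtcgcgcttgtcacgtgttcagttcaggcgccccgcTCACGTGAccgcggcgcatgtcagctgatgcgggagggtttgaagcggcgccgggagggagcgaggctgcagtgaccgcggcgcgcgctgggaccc
Gla: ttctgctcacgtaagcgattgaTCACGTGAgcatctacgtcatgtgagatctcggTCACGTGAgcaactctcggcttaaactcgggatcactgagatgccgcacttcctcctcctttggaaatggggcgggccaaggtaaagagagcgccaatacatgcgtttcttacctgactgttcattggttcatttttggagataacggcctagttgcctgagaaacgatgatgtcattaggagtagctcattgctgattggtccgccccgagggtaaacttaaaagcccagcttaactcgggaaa
The match of Ctsd began at position -99 from the gene start (counted as 0), that of Cln3 at -122 and that of Mcoln1 at -46, whereas Ctsa had matches at -13 and 4 and Gla at -228 and -195. The motifs did not go with 1 direction of difference in the ratios. The median log2 ratio was 0.75 in 13 measured members with CACGTG, 10 of them higher at P5, and 0.84 in 24 members without it, 21 of them higher. For TCACGTGA it was 1.08 in 5 measured members with the motif, 3 of them higher, and 0.79 in 32 members without it, 28 of them higher. Over all tested rows with a window the medians were 0.20 in 1042 genes with the core and 0.11 in 7710 genes without it.

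Cathepsins and other peptidases had higher FPKM at P5 in every case that could be read. All 9 members with FPKM above 0 at both ages were higher, with a median log2 ratio of 1.08, and the class summed to 389.7 FPKM at P5 and 189 FPKM at P3. Ctsd (mm9 chromosome 7, 149561821 to 149573775), which encodes the main aspartic protease of lysosomes, had 96.1 FPKM at P5, against 18.7 FPKM at P3. This was a 5.13-fold difference (log2 ratio 2.36, SE 0.98, 95% interval 0.44 to 4.28, p = 0.016 in the authors' deposited table), and the interval of Ctsd was the only one of 41 that left out 0. By level Ctsd ranked 2 among the members at P5, behind Laptm4a, and 11 at P3.

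The cysteine proteases of highest level were all higher at P5, with ratios that lay within their SEs of each other. Ctsl, an endopeptidase abundant in many tissues, had 70.6 FPKM at P5 and 59.4 FPKM at P3 (log2 ratio 0.25, SE 0.87). Ctsb, which has both endopeptidase and dipeptidyl carboxypeptidase activity, had 92.1 FPKM at P5 and 49.96 FPKM at P3 (log2 ratio 0.88, SE 1.02), at a locus shared with Fdft1 in the table. The carboxypeptidase gene Ctsz, whose locus is shared with Th1l, had 51.5 FPKM at P5 and 28.5 FPKM at P3 (log2 ratio 0.86, SE 1.18). Only pooled values underlie these levels, so whether the replicates of both ages overlapped cannot be read from them.

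The other peptidases, all of lower level than Ctsd at P3, ranged widely in their ratios. Ctsc, the dipeptidyl peptidase that activates serine proteases of immune cells, had 22.7 FPKM at P5 and 4.15 FPKM at P3, a log2 ratio of 2.45 (SE 1.36, p = 0.070 in the authors' deposited table). Ctsh, an aminopeptidase, had 3.71 FPKM at P5 and was listed at 0 at P3, so it has no fold. Both are among the members known for strong expression in microglia, whose markers are given above. Ctsa, the carboxypeptidase that protects beta-galactosidase and neuraminidase in a complex, had 22.6 FPKM at P5 and 10.7 FPKM at P3, at a locus shared with Neurl2 and Pltp. Tpp1, a serine protease that removes tripeptides from protein ends, had 11.96 FPKM at P5 and 5.20 FPKM at P3. Ctsf had 5.33 FPKM at P5 and 2.22 FPKM at P3, and Ctso 13.1 FPKM at P5 and 9.97 FPKM at P3, both cysteine proteases.

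Glycosidases were mostly higher at P5 and of lower level than the peptidases. Of 11 members 10 were higher, with a median log2 ratio of 0.84, and the class summed to 95.7 FPKM at P5 and 52.3 FPKM at P3. Its most abundant members were the fucosidase gene Fuca1, with 28.4 FPKM at P5 and 15.6 FPKM at P3, and Hexa, the alpha subunit of beta-hexosaminidase, with 22.6 FPKM at P5 and 12.7 FPKM at P3. These had log2 ratios of 0.86 (SE 0.97) and 0.83 (SE 1.09), close to the median of all members.

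The beta-glucuronidase gene Gusb (mm9 chromosome 5, 130464891 to 130478698) had the lowest p of the glycosidases. It had 10.7 FPKM at P5 and 1.83 FPKM at P3, a log2 ratio of 2.55 (SE 1.63, p = 0.12 in the authors' deposited table). Naglu, which removes N-acetylglucosamine from heparan sulfate, had 1.80 FPKM at P5 and 0.32 FPKM at P3. Manba, the beta-mannosidase gene, had 0.75 FPKM at P5 and 0.05 FPKM at P3, and its log2 ratio of 3.92, the highest of all members, carried an SE of 3.37. Both genes lay under 1 FPKM at P3, and the median SE was 2.08 over all tested rows with a mean under 5 FPKM, against 1.18 over those between 5 and 20 FPKM.

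Other glycosidases lay within smaller ratios. Glb1, the beta-galactosidase gene, had 8.22 FPKM at P5 and 4.87 FPKM at P3, and Neu1, the sialidase that works in the same complex, had 5.04 FPKM at P5 and 4.15 FPKM at P3. The glycogen-degrading alpha-glucosidase gene Gaa had 8.49 FPKM at P5 and 5.46 FPKM at P3. Man2b1, an alpha-mannosidase, had 4.56 FPKM at P5 and 2.04 FPKM at P3, and Idua, the iduronidase gene, 2.78 FPKM at P5 and 1.55 FPKM at P3. The alpha-galactosidase gene Gla was the only glycosidase with lower FPKM at P5, at 2.41 FPKM against 3.71 FPKM at P3 (log2 ratio -0.62, SE 1.52).

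Sulfatases and the related sulfamidase were divided. In this class 3 of 5 were higher at P5, with a median log2 ratio of 1.11 and sums of 35.3 FPKM at P5 and 21.9 FPKM at P3. Arsb (mm9 chromosome 13, 94541634 to 94712971), which desulfates dermatan and chondroitin sulfate, had 15.8 FPKM at P5 and 3.54 FPKM at P3, a log2 ratio of 2.16 (SE 1.19, p = 0.070 in the authors' deposited table). Ids, the iduronate sulfatase gene, had 15.5 FPKM at P5 and 15.7 FPKM at P3, a log2 ratio of -0.02 with a 95% interval from -1.77 to 1.72. Arsb and Ids therefore stood at near equal FPKM at P5 and apart at P3.

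The remaining sulfatase genes were close to the lower end of the members. Arsa, which desulfates the myelin lipid sulfatide, had 2.23 FPKM at P5 and 1.04 FPKM at P3, and Galns 1.63 FPKM at P5 and 0.63 FPKM at P3. Sgsh, the heparan sulfamidase gene, had 0.21 FPKM at P5 and 1.05 FPKM at P3, the lowest ratio of all members (log2 ratio -2.31, SE 2.87), at a locus shared with Card14. The mean log2 ratio of the class was 0.46, under its median of 1.11.

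Among lipid enzymes 4 of 5 were higher at P5, at a median log2 ratio of 0.44 and sums of 128 FPKM at P5 and 75.2 FPKM at P3. Ppt1 (mm9 chromosome 4, 122513470 to 122536418), the thioesterase that removes palmitate from proteins, had 55.9 FPKM at P5 and 22.3 FPKM at P3, a log2 ratio of 1.33 (SE 0.98, p = 0.18 in the authors' deposited table). The sphingomyelinase gene Smpd1 had 15.5 FPKM at P5 and 7.67 FPKM at P3 (log2 ratio 1.02, SE 1.25). Asah1, the acid ceramidase gene, had 45.2 FPKM at P5 and 33.3 FPKM at P3. Galc, which degrades the myelin lipid galactosylceramide, had 5.28 FPKM at P5 and 5.15 FPKM at P3, and Lipa, the acid lipase for cholesteryl esters, had 5.58 FPKM at P5 and 6.79 FPKM at P3. The last pair had ratios close to 0, with 95% intervals of -2.18 to 2.25 for Galc and -2.93 to 2.37 for Lipa.

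All 3 soluble cofactors had higher FPKM at P5, and each was well expressed at both ages. Psap (mm9 chromosome 10, 59740376 to 59765348), the precursor of the saposins that present sphingolipids to their hydrolases, had 53.7 FPKM at P5 and 21.3 FPKM at P3, a log2 ratio of 1.33 (SE 0.96, p = 0.17 in the authors' deposited table). The cholesterol carrier gene Npc2 had 44.5 FPKM at P5 and 35.2 FPKM at P3. Grn, the progranulin gene, had 22.8 FPKM at P5 and 17.7 FPKM at P3. The median log2 ratio of the class was 0.37.

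Membrane proteins had the smallest median log2 ratio of the classes, 0.33, with 6 of 8 higher at P5. Their sums of 268 FPKM at P5 and 224 FPKM at P3 had a ratio of 1.19, against 2.06 for the peptidases. Laptm4a, a small transmembrane protein of late endosomes and lysosomes, was the most abundant member at both ages, with 136 FPKM at P5 and 122 FPKM at P3 (log2 ratio 0.16, SE 0.94). The heavily glycosylated membrane proteins Lamp1 and Lamp2 had 62.6 and 38.9 FPKM at P5, against 48.3 and 25.96 FPKM at P3. Cd63, a tetraspanin of late endosomes and exosomes, had 10.2 FPKM at P5 and 8.35 FPKM at P3.

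Both members with larger ratios in this class were of low level at P3. Cln3, a membrane protein mutated in juvenile Batten disease, had 4.87 FPKM at P5 and 0.90 FPKM at P3 (log2 ratio 2.43, SE 2.54). Laptm4b, a relative of Laptm4a, had 4.74 FPKM at P5 and 1.26 FPKM at P3 (log2 ratio 1.92, SE 1.96). Scarb2, the receptor that carries glucocerebrosidase to lysosomes, had 8.03 FPKM at P5 and 12.6 FPKM at P3 (log2 ratio -0.65, SE 1.12). Mcoln1, the lysosomal calcium release channel, had 2.51 FPKM at P5 and 5.30 FPKM at P3 (log2 ratio -1.08, SE 1.58). The regulator TFEB, listed as Tcfeb, had 0.36 FPKM at P5 and was listed at 0 at P3, and it was not tested by the authors.

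**Figure D3:**
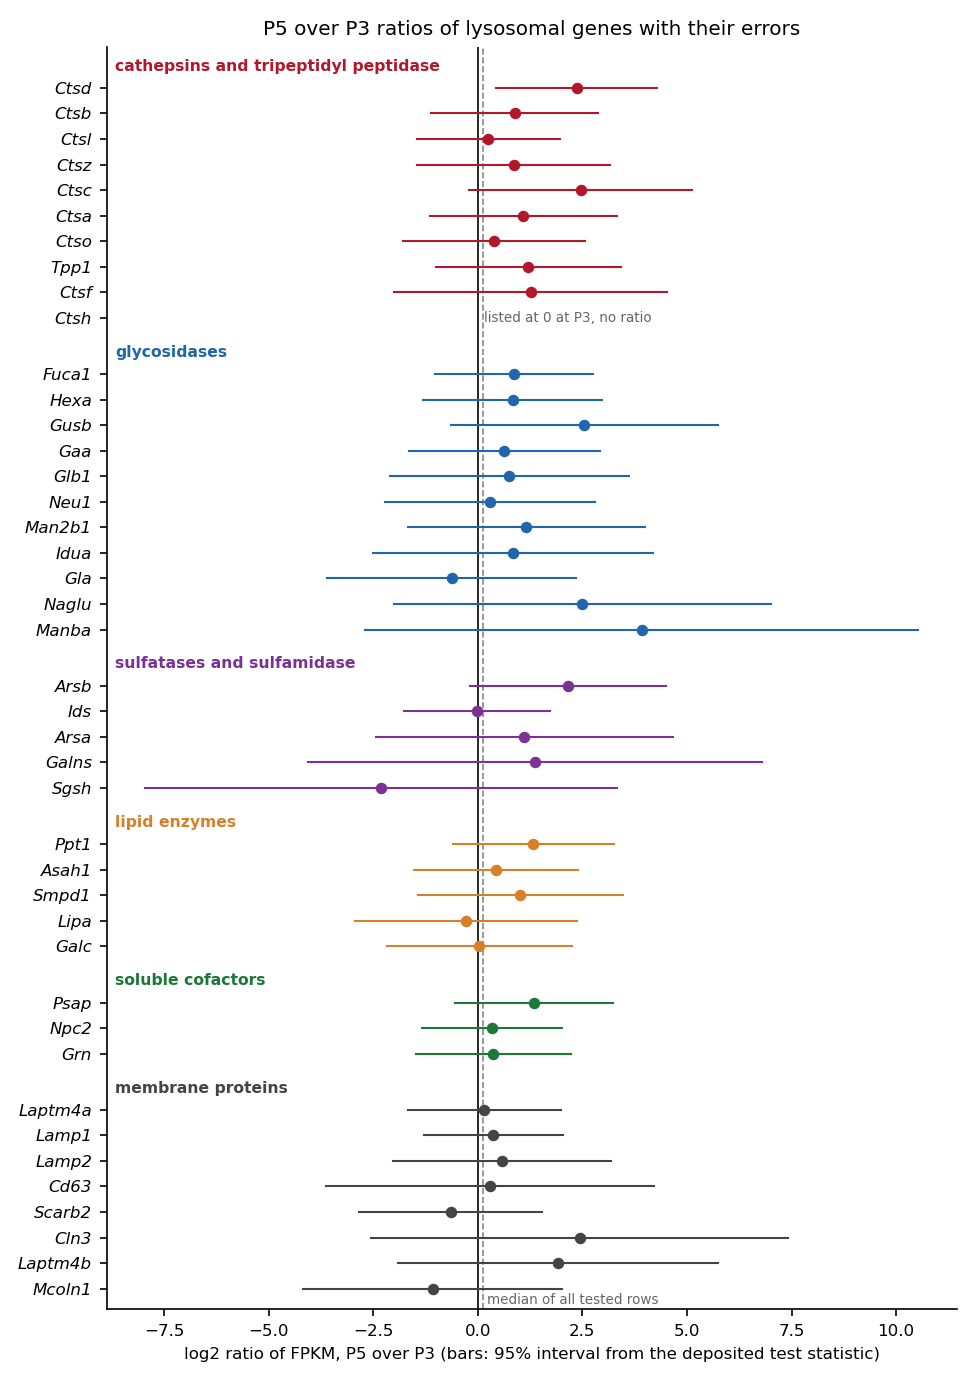
Log2 ratio of FPKM, P5 over P3, of each lysosomal gene with its 95% interval from the deposited test statistic, grouped by class and ordered by P5 level. Ctsd is the only gene whose interval, 0.44 to 4.28, leaves out 0, and Ctsh has no ratio because it is listed at 0 at P3.

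Grouped by the material they degrade, the members overlapped in their ratios. In glycosaminoglycan degradation 6 of 8 enzymes were higher at P5 (median log2 ratio 1.10), and Sgsh and Ids were lower. In sphingolipid degradation, with Psap counted, 8 of 9 genes were higher (median 0.75) and Gla was lower. Members whose loss causes neuronal ceroid lipofuscinosis, a group of storage disorders of neurons, were Ctsd, Ppt1, Tpp1, Cln3, Grn and Ctsf. All 6 were higher at P5, with a median of 1.29 and sums of 197 FPKM at P5 and 66.9 FPKM at P3, of which Ctsd alone made up most of the difference. These groupings were made with the values known and carry no test.

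Lysosomal genes outside the members had lower medians than the members in each of 6 lists. Among other soluble lysosomal proteins 17 of 28 were higher at P5 (median log2 ratio 0.23). The ganglioside activator gene Gm2a was the most abundant of them, with 180 FPKM at P5 and 181 FPKM at P3, and the asparaginyl protease gene Lgmn had 50.99 FPKM at P5 and 16.0 FPKM at P3. Among other lysosomal membrane proteins and transporters 19 of 25 were higher (median 0.62), and these included the microglial genes Cd68 (15.8 FPKM at P5 and 0.19 FPKM at P3) and Laptm5 (8.94 and 0.47 FPKM). Litaf, a late endosomal protein gene, had the highest mean of both ages in this list (12.6 FPKM at P5 and 11.1 FPKM at P3). The cobalamin transport gene Lmbrd1 was next by that mean, with 13.5 FPKM at P5 and 9.64 FPKM at P3. At P5 alone, other genes of the list, such as Cd68, were higher.

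The machinery that delivers and acidifies lysosomes did not share 1 position. Of the V-ATPase subunits, which pump protons into the lumen, 12 of 17 were higher at P5, at a median log2 ratio of 0.58 and sums of 1484 FPKM at P5 and 1162 FPKM at P3. The most abundant subunits were Atp6v0e, with 235 FPKM at P5 and 285 FPKM at P3, and Atp6v0b, with 289 FPKM at P5 and 210.1 FPKM at P3. Genes of mannose 6-phosphate tagging and sorting had a median of 0.03 (9 of 15 higher). The list named HOPS tethering and BORC had a median of 0.06 (7 of 11). That list holds Vps genes, Rab7, Plekhm1, Plekhm2, Arl8a and Arl8b, but no gene of a BORC subunit. Genes of the Ragulator, Rag GTPases, mTORC1 and TFE factors had a median of 0.06 (10 of 19). Within the sorting list the adaptor subunit gene Ap1s1 had 75.2 FPKM at P5 and 13.9 FPKM at P3 (p = 0.043 in the authors' deposited table), while Ap1m1, a subunit of the same adaptor, had 49.7 FPKM at P5 and 53.0 FPKM at P3. In these lists 0 genes passed the authors' Cuffdiff test, and 3 genes, Cd68, Ap1s1 and Lamp5 (listed under an older symbol), had an unadjusted p under 0.05. Whether the ratios of the members differed from those of these lists was not tested.

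**Figure D4:**
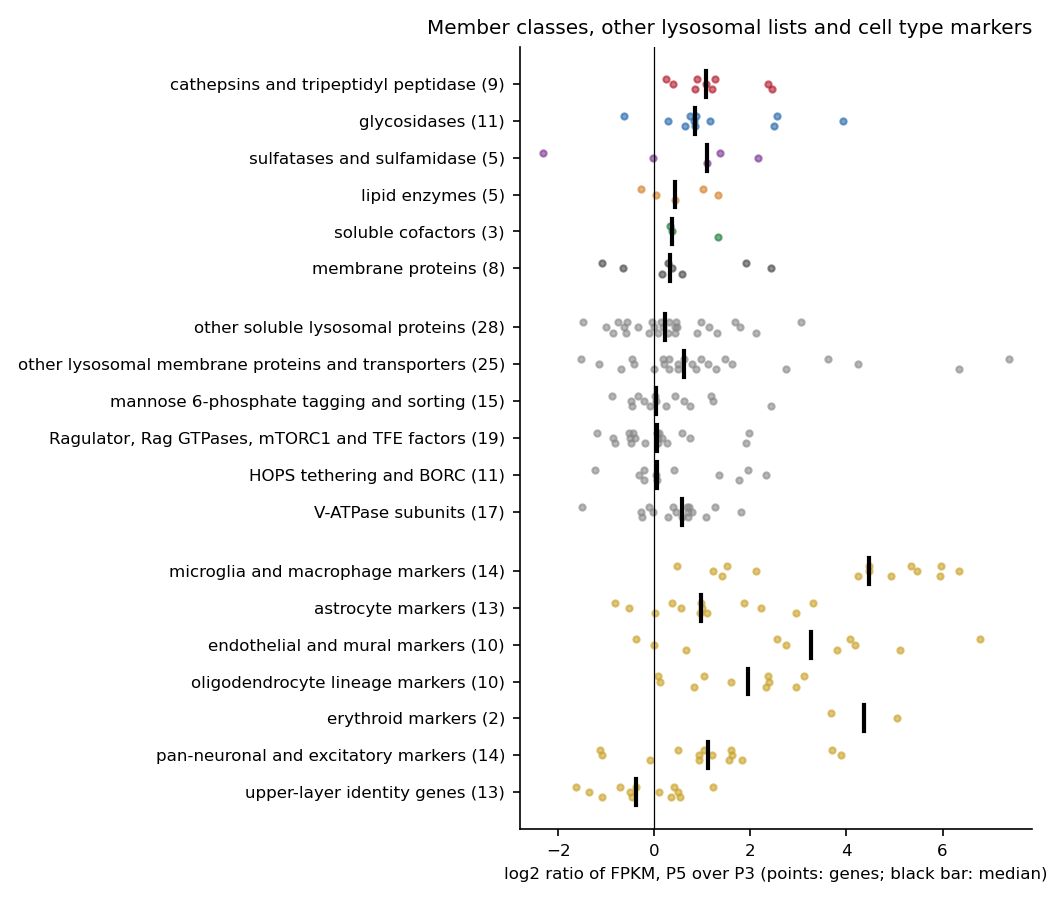
Log2 ratios of FPKM, P5 over P3, of the genes in each member class (coloured), in other lysosomal lists (grey) and in cell type lists (yellow), with the number of genes measured at both ages in brackets and the median as a black bar. Member classes have medians from 0.33 to 1.11, and microglia and macrophage markers 4.46.

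By level, Laptm4a headed the members at both ages and Ctsd stood much higher in the order at P5. At P5 it was followed by Ctsd, Ctsb, Ctsl, Lamp1, Ppt1, Psap and Ctsz, and at P3 by Ctsl, Ctsb, Lamp1, Npc2, Asah1, Ctsz and Lamp2. A level of 5 FPKM was reached by 30 members at P5 and by 25 members at P3. Laptm4a supplied 13.1% of the summed FPKM of the members at P5 and 19.1% at P3, and Ctsd 9.27% at P5 and 2.94% at P3. Since the table gives no spread for a level, neighbours in these orders cannot be told apart by a test.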

How the data were processed

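RNA sequencing libraries of 3 P5 and 3 P3 samples, grouped by their titles, enter 1 deposited table. FPKM values, 1 pooled per age, were made by the authors with TopHat, Cuffdiff 2.02 and build mm9, per the submitters' processing notes, which give neither role nor order of these. The same deposited table holds a log2 ratio and a test statistic, handled as scores because of a placeholder where 1 age is at 0, and a p-value and q-value, per the file headers. The sources used here do not give annotation, strandedness or depth, and FPKM keeps no counts, so no interval from depth is given.

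The main test was the authors' Cuffdiff test at q = 0.05 over rows with status OK. No new test across replicates can be made from pooled values. Over the 12313 tested rows without a 0 at either age, a normal distribution of the statistic gave back the deposited p-value (two-sided) to within 2.8e-06, so the SE was taken as the size of the log2 ratio over the statistic, and 95% intervals as 1.96 SE. The statistic had a robust spread of 0.662 over these rows, below the 1 of a standard normal, so these SEs may be too wide. The steps were tested on simulated data. Genes at 0 at an age are given no fold, since 0 can be a failed estimate.

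Members, classes and lists were chosen with earlier results of these data known. The rule named all members, and of other lists the 3 genes of highest mean FPKM and, for cell types, the first 3 written; values are printed where a result turns on them. One gene that the rule names is not reported here. Lamp5, Laptm5, Ctss, Cd68, Tmem119 and Itgam were named after their values were seen or for their place in 2 lists. Slc1a3 is among the genes of the rule, and it was set beside the upper-layer genes after its values were seen. Of 246 list genes, 9 were matched through an older symbol in RefSeq and 2 had no row. Loci are on mm9, with starts counted from 1. Of the members, 6 have a locus span that overlaps another row, and how reads were divided between such genes is not given. Promoter windows come from RefSeq on GRCm38.p6, and no coordinate was carried between builds. Python 3.11.15, pandas 2.3.3, SciPy 1.17.1 and matplotlib 3.10.9 were used. Alternatives tried were the q threshold, the adjustment, the pseudocount, filters on FPKM and status, means, centring and shared loci. Leaving out Ctsc, Ctsh, Ctsz and Grn was also tried, with all other members kept.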

Additional observations from a re-analysis of the deposited data

How the results depend on the processing

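The count of 0 called members was also 0 at q of 0.01, with Bonferroni adjustment, with a minimum log2 ratio of 1, with adjustment over rows of at least 1 FPKM and with the statistic divided by its robust spread, and it was 1 (Ctsd) at an unadjusted p under 0.05. The members' median log2 ratio of 0.84 ranged from 0.68 with a pseudocount of 1 FPKM to 0.86 as a mean, and 35 of 41 members with higher FPKM at P5 became 34 of 41 after centring on the median of all tested rows, 30 of 35 at loci of their own and 34 of 40 with at least 1 FPKM at either age. Class medians moved by over 0.25 in 5 cases. As means, glycosidases were at 1.25, sulfatases at 0.46 and soluble cofactors at 0.68. With a pseudocount of 1 FPKM sulfatases were at 0.67, and without Grn the 2 other cofactors were at 0.84. For the glycosidases the mean holds the ratio of Manba, and for the sulfatases that of Sgsh. Other class medians stayed within 0.25 of their values under the alternatives run. Leaving out a replicate was not run, because the table holds 1 pooled value per age. No paired analysis was possible because the columns carry no replicate numbers. The depth behind each value is unknown, and with a median SE of 1.19 log2 units most member differences lie below what the deposited test could call.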
